A study of Mus musculus with 60 samples.

Results

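Genes with a numbered Zfp symbol form one of the largest gene families of the mouse and encode zinc finger proteins. They were taken as the genes whose annotated symbol is Zfp followed by a number and at most 1 letter, leaving out Zfp36, whose product binds mRNA through another kind of finger. The array carried 327 such genes, among 19057 genes with a single symbol. A gene was tested in an experiment where its probe had a detection p-value under 0.01 on at least 3 arrays. That kept 180 Zfp genes in the first macrophage experiment, 185 in the second and 163 in the artery experiment. 150 were tested in all 3 experiments and 125 in none.

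Most of these proteins read DNA with tandem C2H2 fingers, each a small fold held by zinc. Many also carry a KRAB domain, which recruits the corepressor Trim28 and, through it, the histone methyltransferase Setdb1, and such proteins are best known for silencing retroelements. Their genes lie largely in clusters that grew by duplication. CpG DNA and the lipopeptide P3C are ligands of TLR9 and TLR2, receptors through which macrophages respond to microbes, and high-density lipoprotein (HDL) exchanges cholesterol with cells.

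The 60 BeadChip arrays fell into 20 groups of 3. The first experiment held bone marrow-derived macrophages of wild-type C57BL/6 mice aged 6 to 8 weeks, left untreated or given CpG, HDL, or both in sequence. The second held macrophages of wild type and of a genotype labelled Atf3-deficient (ATF3-/-), also of strain C57BL/6, each as control, CpG, P3C, HDL, HDL+CpG and HDL+P3C. The growth protocol given with all macrophage samples states an age of 6 to 8 weeks and names wild-type mice. The deletion is not described further. All macrophages were grown with 40 ng/ml M-CSF for 6 d, and the labelled stimulation period was 10 h. HDL, where used, came first (2 mg/ml, 6 h). The ligand then followed for 4 h, at a concentration of 100 nM for CpG or 50 ng/ml for P3C. Injured carotid artery made up the third experiment, from 12-week-old mice, wild type or labelled Atf3-deficient. They received PBS or 20 mg/kg of HDL 3 h after the injury, and the labelled stimulation period was 12 h. No label states that arrays within a group are distinct animals or cultures. The p-values therefore measure spread between these arrays, which may be technical. Arrays were grouped into chips by the number that opens their titles. In the first experiment chip 1 held only arrays with HDL and chip 2 only arrays without. In the second, labelled controls lay on chips 1 and 2, and labelled CpG, P3C and HDL-alone arrays on chips 3 to 6. Those groups share no chip with their control, nor do the labels under P3C or HDL alone, so chip cannot be told apart directly there.

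Of 45281 probes, macrophage arrays detected 11951 to 15323 and artery arrays 9266 to 15397. The wild-type HDL artery replicates 1 and 3 were the lowest, with 9266 and 11094 probes. Control replicate 2 was the lowest array of the first macrophage experiment, with 12209. In wild-type macrophages of the second experiment, CpG replicate 1 stood apart from its group for several Zfp genes. Macrophage markers were detected (6 of 6) in every macrophage group but wild-type CpG of the second experiment, where an array had 5. T cell markers were detected on none (0 of 3). Markers of other cell types were detected too. Control arrays of the first experiment detected 5 of 6 fibroblast, 3 to 4 of 5 neutrophil and 3 of 6 smooth muscle markers. Wild-type controls of the second detected 1 to 2, 2 to 3 and 2 of these. The summed log2 signal of fibroblast markers was 39.53 to 41.22 and 29.64 to 30.46. The B cell marker was detected on all of these control arrays. The part of these cell types was not tested. Atf3 signal was not lower under the Atf3-deficient label: log2 signal in control macrophages was 12.4 to 12.9 with that label and 11.1 to 11.3 without it. The position of that probe in the gene is not given, so it does not check the deletion, and the groups are called by their label. Whether a probe also binds transcripts of a close relative is not given in the files either.

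Promoter windows are shown for Zfp281, Zfp655 and Zfp710, which passed in the same direction in all 8 HDL comparisons of macrophages. Zfp704 did so too, but no window was available for it. The genes shown were chosen after their values were seen. Sequences are from RefSeq on build GRCm38.p6, and each runs 5′ to 3′ from 250 bases before to 50 bases after the start of the gene. Capitals mark matches to a GC box (GGGCGG) or to a cyclic AMP response element-like motif (TGACGTNA), searched on both strands. An NF-kB motif, the AP-1 motif TGANTCA and a sterol response motif, TCACNCCAC, were also searched on both strands and had no match in the 3 windows. They were held by 0.741%, 3.70% and 0% of Zfp windows against 0.385%, 7.93% and 1.22% of all windows.
Zfp281, plus strand, chr1:136624651-136624950: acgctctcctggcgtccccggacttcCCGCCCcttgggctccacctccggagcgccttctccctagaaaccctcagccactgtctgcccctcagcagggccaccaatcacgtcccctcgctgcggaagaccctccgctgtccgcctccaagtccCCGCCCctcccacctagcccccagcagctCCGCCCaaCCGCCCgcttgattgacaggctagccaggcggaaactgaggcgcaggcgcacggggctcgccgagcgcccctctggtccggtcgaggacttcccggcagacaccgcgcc
Zfp655, plus strand, chr5:145231492-145231791: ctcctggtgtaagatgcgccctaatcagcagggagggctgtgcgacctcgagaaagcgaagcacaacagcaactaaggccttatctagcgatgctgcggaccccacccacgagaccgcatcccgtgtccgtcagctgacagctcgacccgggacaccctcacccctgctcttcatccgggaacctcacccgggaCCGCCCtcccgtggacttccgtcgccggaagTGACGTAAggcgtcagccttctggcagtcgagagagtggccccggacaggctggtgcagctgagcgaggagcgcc
Zfp710, plus strand, chr7:80024564-80024863: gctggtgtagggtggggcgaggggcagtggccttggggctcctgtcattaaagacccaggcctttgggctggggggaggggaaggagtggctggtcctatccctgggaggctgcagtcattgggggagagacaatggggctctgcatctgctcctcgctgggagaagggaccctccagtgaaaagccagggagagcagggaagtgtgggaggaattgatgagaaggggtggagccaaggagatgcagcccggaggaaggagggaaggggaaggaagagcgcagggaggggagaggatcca
The window of Zfp281 held 27 CG dinucleotides, that of Zfp655 25 and that of Zfp710 4. Of the 270 Zfp genes with a window, 47.0% held a GC box and 5.56% the cyclic AMP response element-like motif, against 35.9% and 3.08% of 27025 genes. Both motifs contain CG, and the median number of CG dinucleotides was 15 in Zfp windows and 7 in all windows. The part of base composition in these shares was not tested. A match describes the letters in the window and is not a binding site.

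The first question was how the ligands changed these genes in wild-type macrophages. With CpG, 12 Zfp genes rose and 40 fell of 180 tested in the first experiment, where 33.8% of all genes passed, 12.7% higher and 21.1% lower. In the second, 24 rose and 46 fell of 185 with CpG, where 50.9% of all genes passed, 22% higher and 28.9% lower. With P3C 16 rose and 46 fell, where 49.9% of all genes passed, 21.5% higher and 28.3% lower. Upward calls made up 6.67%, 13.0% and 8.65% of the Zfp genes tested, against 12.8%, 22.2% and 21.8% of the other genes. Downward calls made up 22.2%, 24.9% and 24.9%, against 21.1%, 29.0% and 28.4%. The median change was -0.19, -0.11 and -0.18 on the log2 scale for Zfp genes and -0.11, -0.07 and -0.06 for the other genes.

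**Figure D1:**
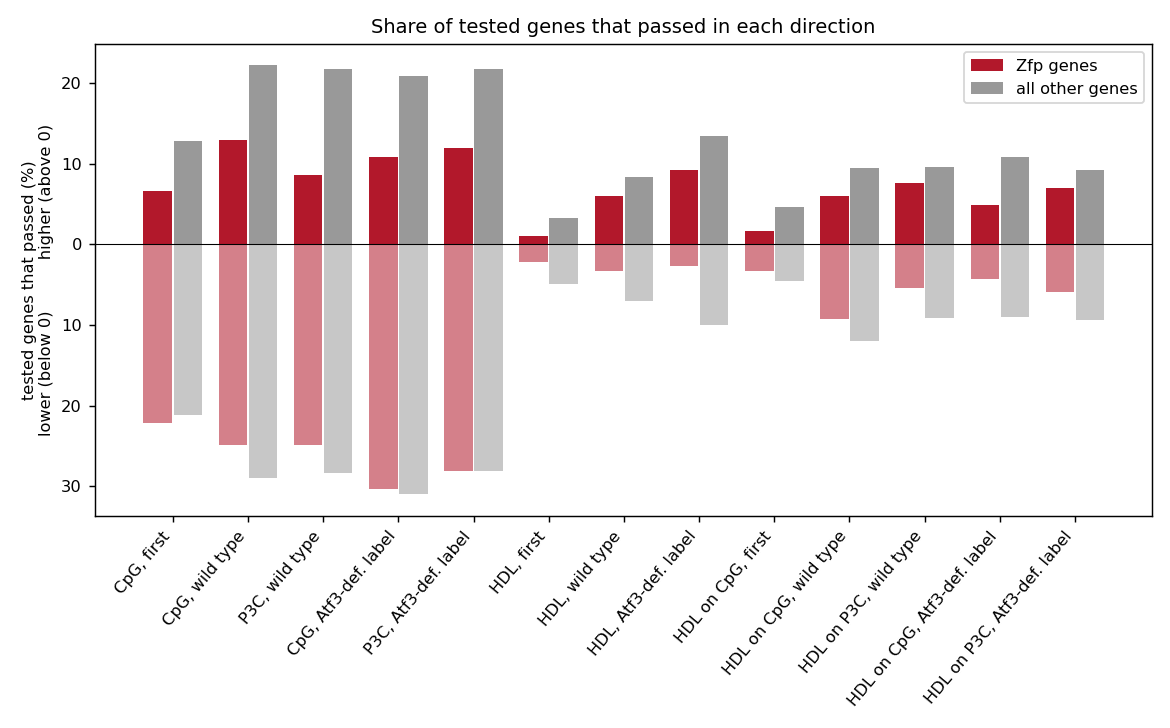
Percentage of tested genes that passed at an adjusted p under 0.05, higher above the zero line and lower below it, for Zfp genes and all other genes in 13 macrophage comparisons. With CpG in the first experiment, 6.67% of Zfp genes rose against 12.8% of other genes, and 22.2% fell against 21.1%.

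Zfp genes were dim: of the 180 tested in the first experiment, 78 lay in the lowest of 4 equal strata of signal and 8 in the highest. With CpG, a smaller share of genes of either kind rose in the dimmest stratum than in the brightest. From the dimmest stratum to the brightest, 2.56%, 8.47%, 11.4% and 12.5% of Zfp genes rose with CpG in the first experiment, against 7.50%, 13.0%, 14.5% and 16.1% of others. In the second they were 7.79%, 10.9%, 23.5% and 30%, against 12.4%, 22.9%, 25.9% and 27.6%, so that the brightest stratum, of 10 Zfp genes, went the other way. With P3C they were 5.19%, 10.9%, 11.8% and 10.0%, against 9.66%, 22.1%, 26.9% and 28.2%. In the same order, 25.6%, 16.9%, 20% and 37.5% of Zfp genes fell with CpG in the first experiment, against 16.7%, 21.9%, 22.8% and 22.8% of others. In the second 26.0%, 23.4%, 23.5% and 30% fell, against 23.3%, 30.5%, 30.6% and 31.3%. The share of Zfp genes that fell was thus above that of others in the dimmest stratum of both experiments. It was below that of others in both middle strata. A gene was kept on 3 detected arrays, which 1 group can supply. Dim genes could thus enter through the group where they were high, and these shares cannot be told apart from that filter. Without it the median change of Zfp genes was -0.040 and -0.015 with CpG in the first and second experiment and -0.033 with P3C. Over all genes it was -0.010, 0.002 and -0.002. Scaling each array to its median in place of quantile normalisation shifted the median of all genes to -0.20, -0.23 and -0.13 in the 3 comparisons. With that scaling 6 Zfp genes rose and 49 fell with CpG in the first experiment. In the second 7 rose and 53 fell with CpG, and 10 rose and 43 fell with P3C. The median of Zfp genes was then -0.30, -0.36 and -0.33 in the same comparisons. What share of all genes passed with this scaling is not reported here.

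The number of Zfp genes detected on an array, counted over all 327, moved with the ligand. In the second experiment, wild-type control arrays detected 162 to 173, CpG arrays 129 to 152 and P3C arrays 139 to 141. The ligand groups did not overlap the controls, and the lowest CpG array was replicate 1, with 11951 probes detected. The mean share of Zfp genes fell from 51.3% to 43.1% with CpG and 42.8% with P3C, while the share of other genes went from 43.8% to 40.5% and 40.8%. Other genes did not overlap either, at 43.2% to 44.2% in control, 38.6% to 42.2% with CpG and 40.6% to 41% with P3C. The exact two-sided permutation test gave p = 0.1 for CpG and for P3C, the smallest that 3 arrays against 3 allow. In the first experiment, control arrays detected 140 to 169 and CpG arrays 134 to 154, which overlapped (exact permutation p = 0.2). The 140 came from control replicate 2, with 12209 probes detected, and the other control arrays detected 163 and 169 Zfp genes. HDL alone left wild-type arrays of the second experiment at 161 to 174, overlapping the controls.

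**Figure D2:**
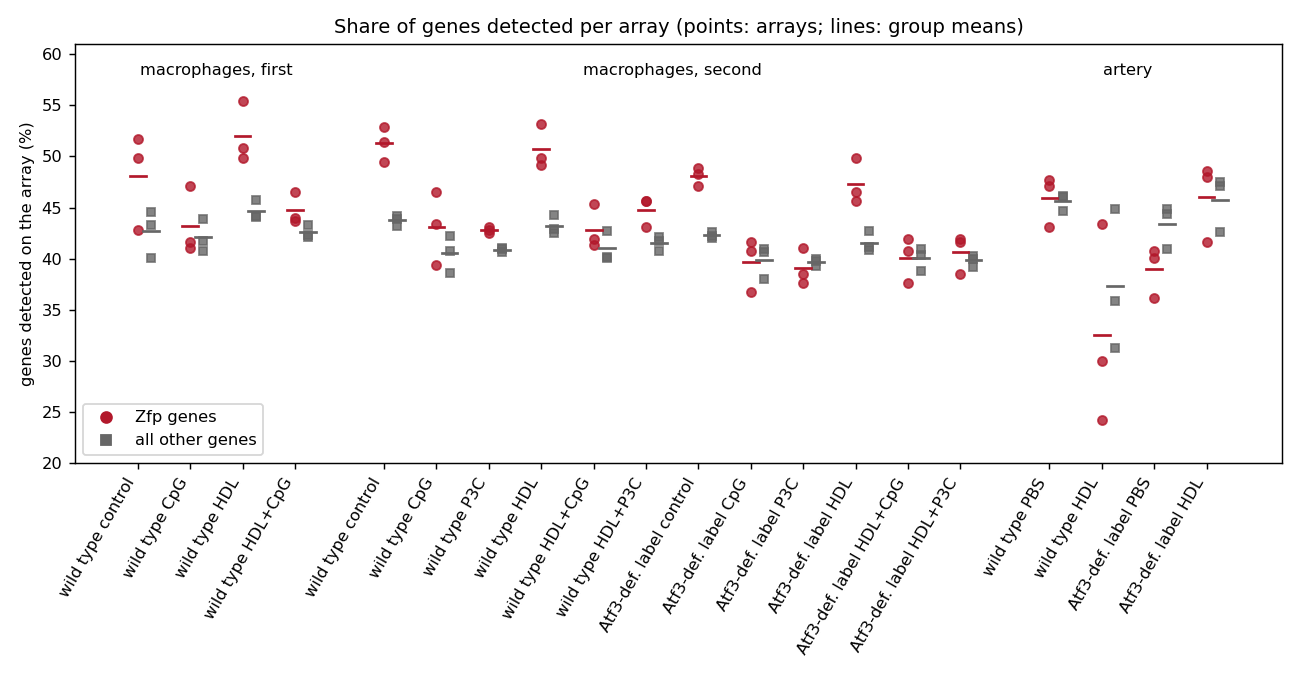
Percentage of genes with a detection p-value under 0.01 on each array, for the 327 Zfp genes and the other genes, by group; points are arrays and lines are group means. In the second macrophage experiment the wild-type mean for Zfp genes is 51.3% in control and 43.1% with CpG.

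A set of 7 Zfp genes rose and 29 fell with all of CpG in the first experiment, CpG in the second and P3C, of 172 tested in both experiments. How many of all genes did so was not counted. With CpG in both experiments 8 Zfp genes rose and 31 fell, against 979 and 1585 of 8477 other genes. CpG and P3C in the second experiment share their control arrays. Under the Atf3-deficient label 20 rose and 56 fell with CpG, where 51.6% of all genes passed, 20.7% higher and 31% lower. With P3C 22 rose and 52 fell, where 49.6% of all genes passed, 21.5% higher and 28.1% lower. With median scaling, for which the share of all genes is not reported here, these were 4 and 56, and 5 and 55. All 7 also rose, and 26 of the 29 fell, with both ligands there, which was not counted for all genes either. Those that rose were Zfp281, Zfp821, Zfp275, Zfp131, Zfp592, Zfp513 and Zfp654. Between the experiments, which share no arrays, 39 genes passed the same way with CpG, which is 76.5% of the calls of the first and 59.1% of those of the second, against 86.5% and 57.0% for the other genes. Across these 172 genes the changes correlated at r = 0.80, and at 0.87 over the other genes, a description across genes that share libraries.

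**Figure D3:**
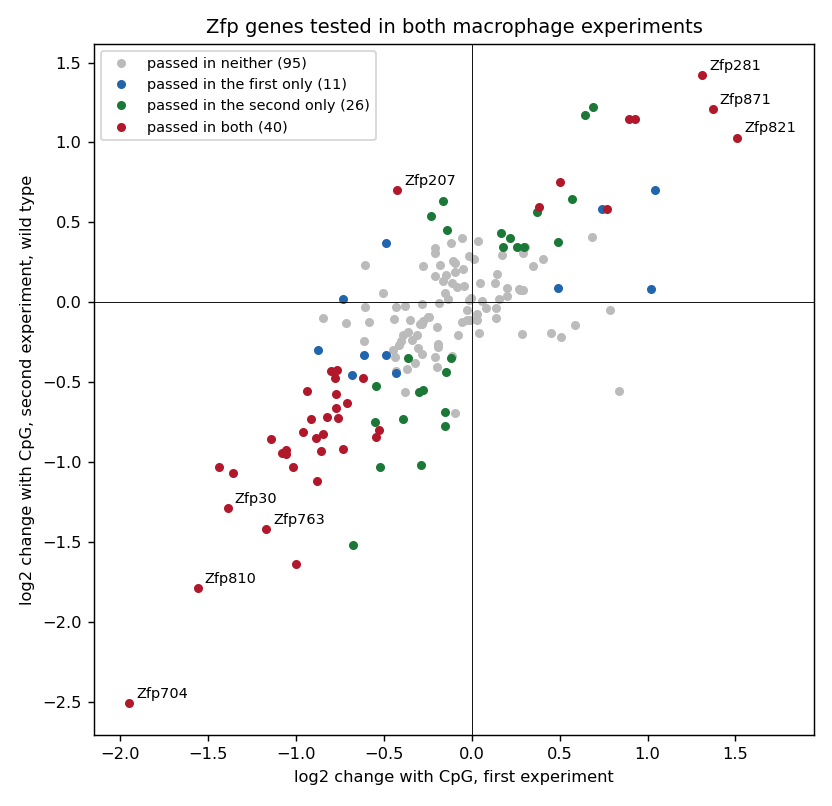
Log2 change with CpG of the 172 Zfp genes tested in both macrophage experiments, first experiment on the horizontal axis and second, wild type, on the vertical axis. Zfp704 and Zfp810 lie lowest in both, Zfp281, Zfp871 and Zfp821 are high in both, and Zfp207 is the 1 gene that passed in opposite directions.

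Zfp281 encodes a transcription factor that binds GC-rich DNA and is known from mouse embryonic stem cells. Its log2 signal on control arrays of the first experiment was 7.48, 7.65 and 7.77, and on CpG arrays it was 9.00, 8.84 and 9.00. In the second it was 8.69, 8.55 and 8.30 in control, 10.60, 9.72 and 9.48 with CpG and 9.47, 9.49 and 9.81 with P3C. Every ligand array lay above every control array of its experiment. The log2 change was 1.31 (SE 0.15, limma adjusted p = 3.11e-05) with CpG in the first experiment, 1.42 (SE 0.21, adjusted p = 1.02e-06) with CpG in the second and 1.07 (SE 0.21, adjusted p = 6.3e-05) with P3C. A further probe of the gene gave 1.21, 1.69 and 1.22.

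Among the other genes that rose with every ligand, Zfp131, which carries a BTB domain beside its fingers, rose by 0.89, 1.15 and 1.03 in the same 3 comparisons, and Zfp275 by 0.93, 1.15 and 1.01. Zfp592 rose by 0.77, 0.58 and 0.60. Zfp821 read 4.96, 4.19 and 4.68 in control and 5.94, 6.27 and 6.15 with CpG in the first experiment. In the second no wild-type control array detected it, with a mean of 4.75, and it read 6.31, 6.50 and 6.19 with P3C, a mean of 6.33 and at least 2.35-fold higher (limma adjusted p = 7.01e-05). With CpG it read 4.39, 6.66 and 6.30, so that replicate 1 lay below the controls while the other two lay above. Its change with CpG was 1.03, against 1.73 without that array, and 0.60 and 0.78 without replicate 2 or replicate 3, where the call was lost. Zfp871 rose by 1.37 and 1.21 with CpG in the first and second experiment, and its 0.73 with P3C did not pass (adjusted p = 0.0563). Its control arrays in the first experiment read 5.23, 4.44 and 5.14, lowest on replicate 2.

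Zfp704 had the lowest log2 change in wild type with each ligand. Its control signal was 6.64, 6.89 and 6.43 in the first experiment, where it was not above background on any CpG array, with a mean of 4.70 against 6.65, at least 3.42-fold lower (limma adjusted p = 3.16e-06). In the second it was 7.82, 8.32 and 8.07 in control, 5.86, 5.40 and 5.42 with CpG and 5.65, 5.15 and 5.93 with P3C. Every ligand array lay below every control array. The log2 change there was -2.51 (SE 0.20, adjusted p = 1.16e-11) with CpG and -2.49 (SE 0.20, adjusted p = 1.44e-11) with P3C. With the mean of all probes of Zfp704 these were -0.75 and -0.60, and -0.49 with CpG in the first experiment, and all 3 passed.

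Zfp810 had the next lowest change with CpG in both experiments, and Zfp763 with P3C. Zfp810 read 6.27, 6.62 and 5.82 in control and 4.57, 4.67 and 4.78 with CpG in the first experiment. In the second it read 7.47, 7.60 and 7.46 in control, 5.97, 5.25 and 5.93 with CpG and 6.31, 5.84 and 5.55 with P3C. All ligand arrays lay below all controls, and the changes were -1.56, -1.79 and -1.61. Zfp30, a KRAB gene, was detected on no array with either ligand. Its mean was 5.63 in control and 4.24 with CpG in the first experiment, at least 1.68-fold lower. In the second the mean was 6.01 in control, 4.71 with CpG and 4.66 with P3C, at least 1.49-fold and 1.57-fold lower. Zfp763 fell by 1.17, 1.42 and 1.74 in the 3 comparisons, and Zfp362 by 1.44, 1.03 and 1.21. Zfp512 fell by 1.64 with CpG and 1.51 with P3C in the second experiment.

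Members with a known role were also followed whatever they did. Zfp148, which like Zfp281 binds GC-rich DNA, fell by 1.08, 0.94 and 0.77 in the 3 ligand comparisons. Zfp219, a transcription factor, fell by 1.52 with CpG and 1.30 with P3C in the second experiment, and its change of -0.68 in the first did not pass (limma adjusted p = 0.205). Zfp91, a ubiquitin ligase of NF-kB signalling, rose by 1.02 with CpG in the first experiment, with 0.08 in the second (adjusted p = 0.76). In the first its control arrays read 6.30, 5.19 and 6.16, lowest on replicate 2, and its CpG arrays 6.82, 6.99 and 6.88. Zfp593, which acts in making the large ribosomal subunit in yeast through its counterpart there, rose by 0.74 in the first experiment and did not pass with CpG in the second (adjusted p = 0.0502). Zfp326, of a splicing complex, rose by 0.65 with CpG in the second, or 0.29 without replicate 1, where the call was lost. Zfp608, which regulates recombinase genes in thymocytes, fell by 1.57 with P3C. Neither KRAB gene of the list that was tested, Zfp809 of retroelement silencing and Zfp445 of imprinting, passed with a ligand. Zfp64, also of NF-kB signalling, changed by -0.03, -0.11 and -0.10 and did not pass. Nor did Zfp202, Zfp263, Zfp638, Zfp598, Zfp318 or Zfp385a. In the second experiment Zfp335 rose by 0.767 with P3C and Zfp622 by 0.589 with CpG. Zfp106 rose there by 0.345 with CpG and 0.391 with P3C, and Zfp346 fell by 0.547 with P3C.

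Zfp207, a spindle protein, passed in opposite directions, with -0.42 with CpG in the first experiment and 0.70 in the second. The experiments used different probes of the gene there. The probe used in the second gave 1.40 in the first, and the probe used in the first gave -0.11 in the second.

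The corepressor genes that KRAB proteins work with were counted from a list, of which 21 were tested. With CpG 1 rose and 2 fell in the first experiment and 6 rose and 5 fell in the second, and with P3C 5 rose and 4 fell, where 33.8%, 50.9% and 49.9% of all genes passed. Their median changes were 0.05, -0.00 and -0.10, beside -0.11, -0.07 and -0.07 over all genes. Trim28 changed by -0.16, 0.07 and 0.24, and none of these passed. Setdb1 fell by 0.93 with CpG and 0.63 with P3C in the second experiment, and its -0.46 in the first did not pass (limma adjusted p = 0.144). Neutrophil markers moved with the ligand too: their summed log2 signal was 25.89 to 26.84 in wild-type control and 29.87 to 31.46 with CpG in the second experiment, with 2 to 3 and 3 to 4 of 5 markers detected. It was 29.06 to 30.81 with P3C. In the first experiment it overlapped, at 24.86 to 31.58 in control and 28.53 to 31.52 with CpG. The summed macrophage marker signal went from 69.04 to 70.07 in control to 63.21 to 65.56 with CpG in the second. The part of these markers in the Zfp results was not tested. In such bulk samples fewer cells of a type and less RNA per cell cannot be told apart.

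CpG and P3C were also set against each other. No Zfp gene passed, while 0.77% of all genes passed, 0.662% higher and 0.109% lower. Leaving out single arrays gave 0 to 3 Zfp genes that passed. 17 of 185 Zfp genes had an unadjusted p under 0.05, against 1217 of 9030 other genes. The smallest p among Zfp genes belonged to Zfp608, 1.01 higher with CpG (limma adjusted p = 0.0838).

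The second question was what HDL did. HDL alone raised 2 and lowered 4 of 180 Zfp genes in the first experiment, where 7.99% of all genes passed, 3.17% higher and 4.82% lower. In the second it raised 11 and lowered 6 of 185 in wild type, where 15.2% of all genes passed, 8.36% higher and 6.89% lower. Under the Atf3-deficient label it raised 17 and lowered 5, where 23.2% of all genes passed, 13.4% higher and 9.84% lower. Of the Zfp genes tested, 3.33%, 9.19% and 11.9% passed. On top of CpG, HDL raised 3 and lowered 6 Zfp genes in the first experiment, where 9.12% of all genes passed, 4.61% higher and 4.52% lower. For wild type of the second it raised 11 and lowered 17 on CpG, where 21.4% of all genes passed, 9.41% higher and 12% lower. It raised 14 and lowered 10 on P3C, where 18.6% of all genes passed, 9.56% higher and 9.06% lower. With the label HDL raised 9 and lowered 8 on CpG, where 19.6% of all genes passed, 10.8% higher and 8.84% lower. It raised 13 and lowered 11 on P3C there, where 18.5% of all genes passed, 9.25% higher and 9.3% lower. Scaling to the median gave 3 up and 2 down for HDL and the same for HDL on CpG in the first experiment. In the second experiment's wild type it gave 1 up and 0 down for HDL, 3 and 0 on CpG and 9 and 0 on P3C. Under the Atf3-deficient label it gave 4 and 0 on CpG and 2 and 0 on P3C. With the chip as a fixed effect the wild-type HDL count was 7 and that on CpG 16. What share of all genes passed with either setting is not reported here. Within chip 1 the HDL change was 0.77 for Zfp655 and -0.83 for Zfp710.

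Zfp655 and Zfp704 rose, and Zfp281 and Zfp710 fell, in all 8 comparisons with HDL, of which those with the same control or ligand group share arrays. How many of all genes did so was not counted. With HDL alone in wild type of both experiments 2 Zfp genes rose and 2 fell of 172, against 245 and 303 of 8477 other genes. Zfp710 read 11.03, 11.07 and 11.16 in control and 10.14, 9.86 and 10.13 with HDL in the first experiment. In wild type of the second it read 11.99, 11.95 and 12.02 in control and 11.16, 11.25 and 11.12 with HDL. The HDL arrays lay below all controls in both. The change was -1.05 (SE 0.14, limma adjusted p = 0.000603) and -0.81 (SE 0.10, adjusted p = 5.37e-07). A further probe gave 0.05 and -0.29, so that in the first experiment the probes differed in sign. With median scaling 4 of the 7 HDL calls of Zfp710 recomputed were lost, among them HDL alone in wild type of the second experiment (-0.77, adjusted p = 0.0573).

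Zfp655, whose human counterpart is known to bind the signalling protein Vav, read 7.89, 7.98 and 7.52 in control and 8.72, 8.52 and 8.49 with HDL in the first experiment. In the second experiment's wild type it read 8.73, 8.45 and 8.75 in control and 9.51, 9.60 and 9.46 with HDL. Again no HDL array overlapped the controls. The change was 0.78 (SE 0.16, limma adjusted p = 0.00877) and 0.88 (SE 0.14, adjusted p = 2.78e-05), and a further probe gave 0.01 and 0.15. With HDL+CpG it stayed high, at 8.84, 8.66 and 8.62 in the first experiment against 7.98, 8.14 and 7.92 with CpG.

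**Figure D4:**
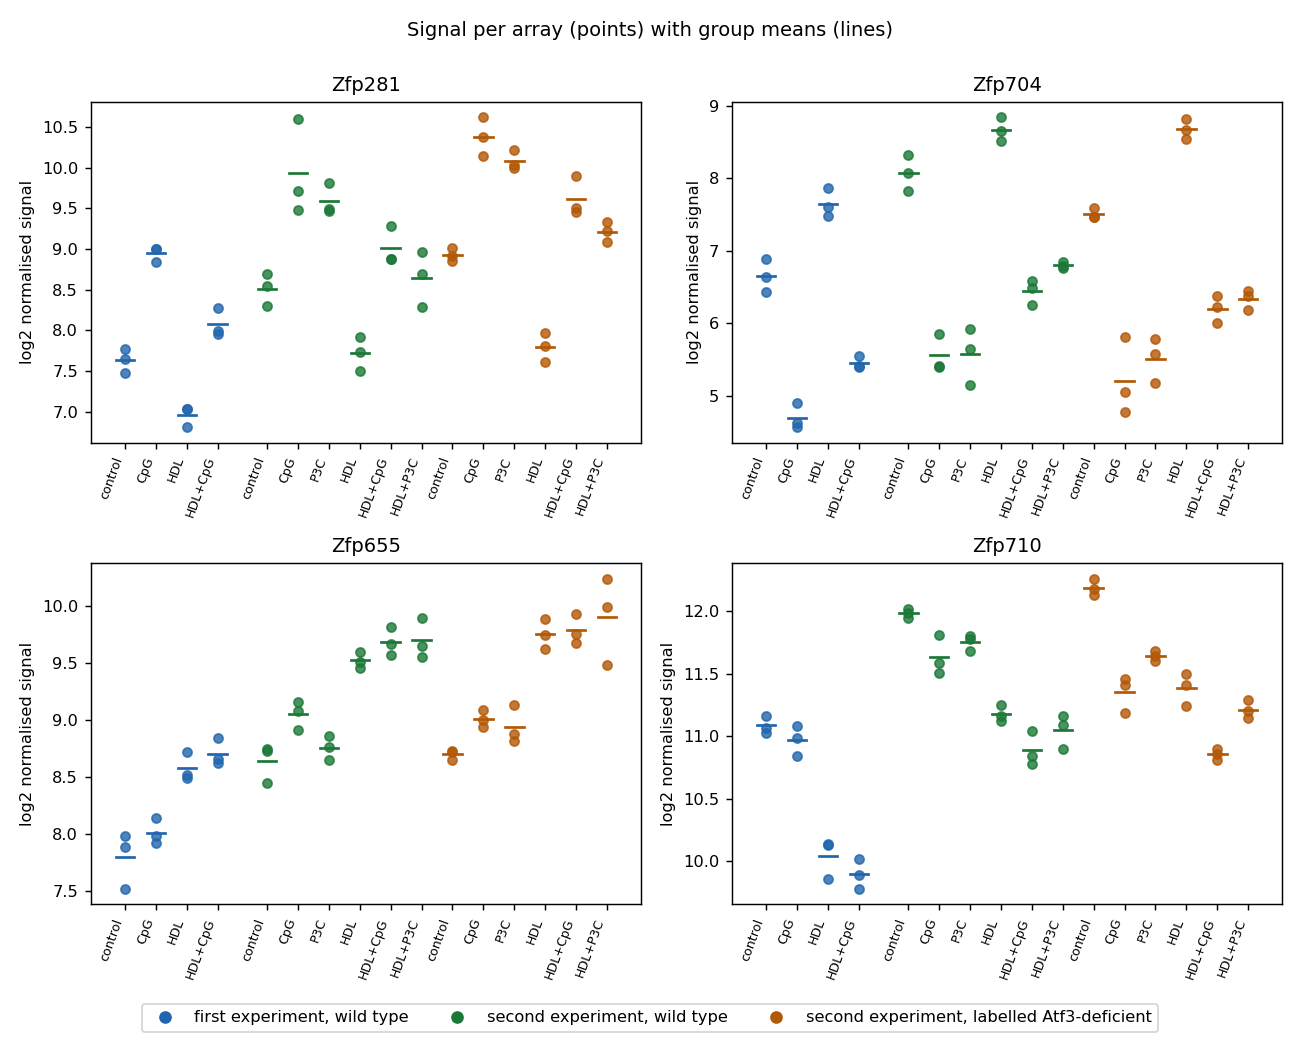
Log2 normalised signal of Zfp281, Zfp704, Zfp655 and Zfp710 on each macrophage array (points) with group means (lines), by treatment, experiment and labelled genotype. HDL groups are lower than their partners without HDL for Zfp281 and Zfp710 and higher for Zfp655 and Zfp704.

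Zfp281, which rose with the ligands, fell with HDL, and Zfp704, which fell with them, rose. Zfp281 read 6.81, 7.03 and 7.04 with HDL in the first experiment and 7.92, 7.73 and 7.50 in wild type of the second, below all controls. Its changes were -0.67 (SE 0.15, limma adjusted p = 0.0144) and -0.80 (SE 0.21, adjusted p = 0.00574). On top of CpG it changed by -0.88 and -0.92, and on top of P3C by -0.94. With median scaling 7 of its 8 HDL calls were lost, with changes of -1.07 to -0.41. Zfp704 read 7.87, 7.60 and 7.48 with HDL in the first experiment and 8.65, 8.52 and 8.84 in wild type of the second, above all controls. Its change was 0.996 (SE 0.17, adjusted p = 0.00283) and 0.60 (SE 0.20, adjusted p = 0.0426). The call in the second experiment was lost in 10 of 16 alternative settings. With the mean of all probes of Zfp704 the changes were 0.27 (adjusted p = 0.0743) and 0.15, and both calls were lost.

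Zfp874b fell with ligands and rose with HDL on top of them. In wild type of the second experiment it read 7.11, 6.75 and 6.51 in control, 5.88, 5.72 and 5.71 with P3C and 7.22, 7.37 and 7.51 with HDL+P3C. The HDL+P3C arrays lay above the controls. HDL on top of P3C raised it by 1.59 (SE 0.19, limma adjusted p = 2.09e-07) and on top of CpG by 1.08. In the first experiment HDL on top of CpG raised it by 1.14, while HDL alone gave no call there.

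Zfp467, known for its part in the choice between fat and bone cells, fell by 0.73 with HDL and 1.15 with HDL on CpG in the first experiment. HDL alone gave -0.41 in wild type of the second, which did not pass (limma adjusted p = 0.129). On top of the ligands there it fell by 0.81 with CpG and 0.51 with P3C. Zfp202, whose human counterpart represses genes of lipid transport, read 6.39, 6.23 and 6.34 in wild-type control of the second experiment and 6.83, 6.88 and 6.75 with HDL. It rose by 0.50 there (limma adjusted p = 0.00674) and by 0.80 under the Atf3-deficient label, and its 0.40 in the first experiment did not pass (adjusted p = 0.283).

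Whether HDL changed the ligand response was tested as an interaction. In the first experiment no Zfp gene passed, while 1.12% of all genes passed, 0.744% higher and 0.377% lower. There 9 of 180 Zfp genes had an unadjusted p under 0.05, against 747 of 8830 other genes. In wild type of the second, Zfp658 passed for CpG, with -0.78, where 4.55% of all genes passed, 1.92% higher and 2.63% lower. Zfp367, Zfp652 and Zfp874b passed for P3C, all higher, where 3.88% of all genes passed, 1.84% higher and 2.04% lower. Zfp367 fell by 1.34 with P3C without HDL and was raised by 1.04 when HDL was given before P3C, with arrays at 6.42, 6.43 and 6.34 with P3C and 7.20, 7.14 and 7.97 with both.

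The third question was the labelled genotype. Between Atf3-deficient label and wild type, 0 Zfp genes were higher and 5 lower in control, where 13.2% of all genes passed, 6.46% higher and 6.78% lower. With CpG 8 were higher and 22 lower, where 22.7% of all genes passed, 8.9% higher and 13.8% lower. With P3C 5 were higher and 6 lower, where 12.9% of all genes passed, 6.32% higher and 6.6% lower. With HDL 1 was higher and 2 lower, where 10.5% of all genes passed, 5.1% higher and 5.39% lower. The count with CpG rests on the wild-type CpG arrays: it was 30 with all of them, 11 without replicate 1 and 42 without replicate 2. It was 16 with the chip as a fixed effect, and median scaling gave 1 higher and 9 lower with CpG, 0 and 4 with P3C and 0 and 1 with HDL. The 5 in control became 0 to 2 when single arrays were left out. What share of all genes passed under these settings is not reported here. Fibroblast markers summed to 29.64 to 30.46 in wild-type control and 34.2 to 35.43 with the label, with 1 to 2 and 2 to 3 of 6 detected. Neutrophil markers summed to 25.89 to 26.84 and 22.84 to 23.47, with 2 to 3 and 0 of 5 detected. The B cell marker read 5.862 to 6.205 and 6.635 to 6.99, and endothelial markers 30.93 to 32.06 and 30.31 to 30.45. Macrophage, T cell, smooth muscle, skeletal muscle and fat markers overlapped. The part of these markers was not tested.

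Zfp445, a KRAB gene that keeps imprints, was lower under the Atf3-deficient label in control, CpG and HDL. Its control arrays read 7.62, 6.64 and 7.54 in wild type and 5.92, 6.41 and 5.90 with the label. The groups did not overlap, and the change was -1.19 (SE 0.33, limma adjusted p = 0.0135), with -1.31 in CpG and -1.08 in HDL. Without wild-type CpG replicate 1 the change in CpG was -0.84 and did not pass. Zfp810 was lower with the label in both ligand groups, by 1.03 in CpG and 1.18 in P3C. It was detected on no array of those groups, which puts it at least 1.19-fold and 1.32-fold lower.

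Responses differed between the labelled genotypes for few Zfp genes. Zfp821 was higher and Zfp94 lower for CpG, where 3.11% of all genes passed, 0.966% higher and 2.15% lower. None passed for P3C, where 2.17% of all genes passed, 0.825% higher and 1.35% lower. For P3C 15 of 185 Zfp genes had an unadjusted p under 0.05, against 961 of 9030 other genes. Zfp760 was higher for HDL, where 1.27% of all genes passed, 0.293% higher and 0.977% lower. Zfp94 read 6.86, 6.32 and 6.27 in wild-type control and 6.18, 5.72 and 5.88 with CpG. Under the Atf3-deficient label it read 6.65, 6.30 and 7.24 in control and was detected on no CpG array. Zfp821 read 7.47, 7.30 and 7.57 with CpG under that label, above all wild-type CpG arrays, 1 of which was the low replicate 1.

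In carotid artery no Zfp gene passed in any of 4 comparisons by limma, and 0% of all genes did. With an unadjusted p under 0.05 there were 29 Zfp genes for HDL against PBS in wild type, 1 under the Atf3-deficient label, 1 between labels in PBS and 6 for the difference in HDL response. These counts are of 163 Zfp genes tested. In the same order, 2131, 128, 56 and 385 of 9193 other genes had such a p. Zfp810 read 6.77, 6.21 and 6.01 with PBS and 4.24, 5.96 and 4.50 with HDL in wild type, and was detected on 1 of the HDL arrays (change -1.43, SE 0.45, adjusted p = 0.192). The low values were those of replicates 1 and 3, the arrays with few probes detected. Without replicate 2, the HDL array with the most probes detected (14116), 32 Zfp genes passed, and 54 passed with median scaling and 61 with the deposited matrix values, which are not normalised between these arrays. The share of all genes under these settings is not reported here. Smooth muscle markers moved with the low arrays, with a summed log2 signal of 38.43 to 60.75 over the wild-type HDL arrays and 52.86 to 62.89 over the PBS arrays, and 3 to 5 against 5 to 6 of 6 detected. Fibroblast markers lay at 33.23 to 55.41 with HDL and 54.94 to 57.03 with PBS, and 0 to 3 of 3 T cell markers were detected in both. The part of these cell types in the Zfp values was not tested. Without these 2 arrays 1 wild-type HDL array was left, at 5.96 for Zfp810, a change of -0.37.

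Zfp genes that lie next to another Zfp gene of the array were compared with those that do not, a split made after seeing the values. Of 326 placed genes, 152 had such a neighbour among protein-coding genes of GRCm38.p6. With CpG in the first experiment 24 of 79 with a neighbour fell and 16 of 101 without, 30.4% and 15.8%, where 21.1% of all genes fell. In the second experiment's wild type, 26 of 83 and 20 of 102 fell with CpG, and likewise 26 and 20 with P3C, 31.3% and 19.6%, where 28.9% and 28.3% of all genes fell. In the same order, 3 and 9, 6 and 18, and 4 and 12 genes rose, where 12.7%, 22% and 21.5% of all genes rose. With HDL 0 and 2 rose and 1 and 3 fell in the first experiment, where 3.17% of all genes rose and 4.82% fell. In the second 6 and 5 rose and 2 and 4 fell, where 8.36% of all genes rose and 6.89% fell. Their median changes with CpG were -0.28 and -0.11 in the first experiment and -0.21 and -0.01 in the second. Neighbours can share sequence, so these genes are not independent.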

How the data were processed

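The authors deposited, per the file headers, 3 scanner tables without normalisation, in which each of 60 arrays has a probe signal intensity beside its detection p-value. The deposited matrix holds a normalised linear intensity for macrophages (medians 96.5 and 113.9) and log2 of the signal for artery, checked on all 12 arrays; the authors' steps are not given, and the submitters' processing notes name Partek. Each experiment was processed with limma 3.58.1 in R 4.3.3: neqc background correction with an offset of 16, quantile normalisation and log2. Of 45281 probes 34885 had 1 gene symbol, 18 several and 10378 none. Among several probes of a gene, the one with the highest mean signal was used. A mean per group was fitted, moderated with eBayes, and genes passed where p, adjusted by Benjamini-Hochberg over all genes tested, was under 0.05. Every adjusted p in the text is from limma. The number of arrays limits the precision. A gene detected on no array of a group has its fold given as a lower bound, taken per array from whichever was higher, its own signal or the dimmest detected probe. The fit was tested on simulated data.

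The members, lists and rules were chosen with earlier results of these data known. Named genes are the 6 largest rises and falls that passed in ligand and HDL comparisons (3 in others, or the 3 smallest p where none passed), those that passed in all ligand or both HDL comparisons, and a list by role. Others are said to be chosen after their values were seen. Classes by KRAB domain and finger number were not analysed here. Replicate numbers follow the order of records and pair no arrays. Alternatives were no background correction, median scaling, the matrix values, no detection filter, the mean of all probes, the chip as fixed or random effect, only the groups compared, updated symbols, and leaving out each array. Array weights and leaving out low artery arrays were added after seeing the data. Python 3.11.15 with matplotlib 3.10.9 made the figures.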

Additional observations from a re-analysis of the deposited data

Results flagged for a closer look

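In wild-type macrophages of the second experiment, 4 Zfp genes passed the limma test of whether the ligand response differed with and without HDL. Zfp658 gave a difference of -0.777 with CpG (SE 0.23, adjusted p = 0.047), Zfp367 1.15 with P3C (SE 0.30, adjusted p = 0.0231), Zfp652 0.945 with P3C (SE 0.22, adjusted p = 0.0084) and Zfp874b 1.03 with P3C (SE 0.27, adjusted p = 0.0231), all on the log2 scale. Of 22 alternative settings, the call was lost in 14 for Zfp658, 7 for Zfp367, 1 for Zfp652 and 7 for Zfp874b, and no sign changed.

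A difference in response between the Atf3-deficient label and wild type passed for 3 Zfp genes. Zfp821 responded more to CpG under the label, by 1.71 (SE 0.43, limma adjusted p = 0.0235), with both control groups not above background. Without wild-type CpG replicate 1 this was 1.01. Zfp94 gave -1.22 for CpG (SE 0.29, adjusted p = 0.0126), with the labelled CpG group not above background, and Zfp760 gave 1.09 for HDL (SE 0.28, adjusted p = 0.0485). The call was lost in 7, 5 and 16 of 22 settings, with no change of sign.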

How the results depend on the processing

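Counts are of Zfp genes that passed. What share of all genes passed under each alternative is not reported here, so these counts describe stability only. With array weights, chosen after seeing the data and not converged in the first macrophage experiment or in artery, CpG gave 88, HDL 26, HDL on CpG 71 and the HDL by CpG interaction 5 in the first experiment. In the second they gave 37 for HDL on P3C, 4 and 7 for the interactions with CpG and P3C, 59 for HDL under the Atf3-deficient label, 39, 10, 19 and 8 between labels in control, CpG, P3C and HDL, and 7 and 3 for the P3C and HDL responses between labels. In artery they gave 9 for HDL under that label. With the chip as a fixed effect the first experiment's interaction gave 4. In the second HDL gave 7, HDL on CpG 16, the labels 9, 16 and 3 in control, CpG and P3C, and the HDL response 0. As a random effect the chip gave 5 for the first experiment's interaction, 2 for that with CpG in the second, and 8 and 6 between labels in control and P3C.

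Median scaling gave 5 for HDL on CpG and 1 for the interaction in the first experiment. In wild type of the second it gave 1, 3 and 9 for HDL alone, on CpG and on P3C, and 0 and 0 for the interactions. Under the label it gave 8, 4 and 2 for HDL alone, on CpG and on P3C. Between labels it gave 1, 10, 4 and 1 in control, CpG, P3C and HDL, and 0 and 0 for the CpG and HDL responses, with 54 for HDL in wild-type artery. Zfp106 turned to -0.026 with CpG in wild type of the second, and Zfp3 to 0.443 in the artery difference of responses. The deposited matrix values gave 0 for the HDL response and 61 for HDL in wild-type artery, and turned Zfp3 to 0.3 in the artery difference, 0.00405 with HDL under the label and -0.0186 between labels in PBS. The mean of all probes gave 2 and 1 for the interactions, 4 and 0 for the CpG and HDL responses, and Zfp207 at 0.324 with CpG in the first experiment. No background correction gave 0 for the HDL response. No detection filter gave 0 for it, 5 between labels in P3C and 0 for the interaction with CpG.

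Fitting only the groups compared, with fewer arrays to estimate the spread, gave 33 for CpG and 2 for HDL in the first experiment, and 46 for CpG, 5 for HDL on CpG, and 0 and 7 for the interactions in wild type of the second. It gave 9 for HDL on CpG under the label, 11, 1, 7 and 5 between labels in control, CpG, P3C and HDL, and 0, 1 and 0 for the CpG, P3C and HDL responses. The causes were not tested.

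Leaving out single arrays gave 36 to 55 for CpG, 4 to 10 for HDL, 5 to 9 for HDL on CpG and 0 to 0 for the interaction in the first experiment. In wild type of the second it gave 58 to 70 for CpG, 53 to 61 for P3C, 0 to 3 between them, 6 to 15 for HDL, 18 to 36 on CpG, 15 to 18 on P3C, and 0 to 4 and 1 to 3 for the interactions. Under the label it gave 66 to 74 for CpG, 60 to 67 for P3C, 17 to 22 for HDL, 13 to 17 on CpG and 13 to 23 on P3C. Between labels it gave 0 to 2, 11 to 42, 3 to 9 and 0 to 4 in control, CpG, P3C and HDL, and 0 to 6, 0 to 1 and 0 to 1 for the responses. In artery it gave 0 to 32 for HDL in wild type, 0 to 0 under the label and between labels, and 0 to 3 for the difference. Leaving out both low artery arrays, chosen after seeing the data, left 1 wild-type HDL array, assumed to vary like the other groups. The count of 0 there says nothing about stability. No paired analysis was possible because replicate numbers follow the order of records and pair no arrays. Zfp genes of low signal, near background in many groups, limit what could be seen.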
